A study of Homo sapiens and Mus musculus with 33 samples.

Results

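Cells rich in mitochondrial RNA were taken from the standard 10x library of eHAP cells: 224 of its 2807 cells (7.98%, 95% Clopper-Pearson interval 7.004 to 9.045) had 10% or more of their unique molecular identifiers (UMIs) on the 13 genes whose symbols start with MT-, and are called high MT cells here. The other 2583 cells of the library lay under 10% and are called low MT cells. The members were thus chosen by the measured MT share, so that share and the depth that enters it are descriptions, and the genes outside the mitochondrial genome were compared after MT UMIs had been taken out of every total. eHAP is a human haploid line derived from HAP1. This library had no 4-thiouridine (4sU) label and no chemical conversion, and both classes come from this 1 library. The series also holds eHAP cells labelled with 4sU. They were profiled by NOTE-seq, a single-cell assay of new RNA in formaldehyde-fixed cells, or after methanol fixation. The methanol protocol used 80% methanol and 10 mM iodoacetamide (IAA) for 16 h. Other libraries come from K562 with or without IAA, unstimulated and stimulated Jurkat cells, a mixture of Jurkat with mouse NIH3T3 cells, and mouse naive T cells. The naive T libraries cover a time course and cells without 4sU. The single-cell libraries held 30019 cells in all.

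The mitochondrial genome is copied and transcribed inside the organelle and encodes core subunits of respiratory complexes I, III and IV and of ATP synthase. All other subunits of the chain, and every protein that carries out mitochondrial translation, import and DNA upkeep, come from nuclear genes whose mRNAs are mostly translated in the cytosol or at the organelle surface. A high MT share is widely used to filter single-cell data, because mitochondrial transcripts sit behind membranes of their own while cytosolic mRNA is free to leave a damaged cell.

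With 1 library, the cells are not replicates. No test was made between the classes, and intervals cover counting error only. UMIs that share a cell also vary together, so the spread is wider than these intervals. Low MT cells had a median of 18363 non-MT UMIs. Markers of other cell types were at or near 0 in high MT cells: T cell markers had 0 UMIs, against 22 in low MT cells, and myeloid markers 0 against 8. Erythroid markers had 8 UMIs against 397, and B cell markers 2 against 68. These counts come from 593347 non-MT UMIs in high MT cells and 52756013 in low MT cells. As shares, erythroid markers were 0.00135% and 0.000753%, and B cell markers 0.000337% and 0.000129%. For T cell and myeloid markers the upper 95% limit in high MT cells, 0.000622%, lay above the low MT shares, so the counts of 0 do not set the classes apart. Of the fibroblast list, with 651 against 75719 UMIs, VIM and FN1 held nearly all UMIs. No doublet caller was run. None of the high MT cells exceeded 2 times the library's median non-MT UMIs, against 301 low MT cells (11.7%). The choice by MT share favours cells with few non-MT UMIs, so this count cannot show whether doublets were among them. Between 0 and 4 cell barcodes were shared with each other library.

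MT-CO3, a core subunit of cytochrome c oxidase and the marker given for this class, led the MT UMIs of these cells, as it did those of low MT cells. In UMI number the class stood apart by its small amount of other RNA. High MT cells had 53 to 20432 non-MT UMIs with a median of 1274.5, against 484 to 110953 with a median of 18363 in low MT cells, which makes the median 14.4-fold lower. MT UMIs per cell had medians of 952 in high MT cells and 789 in low MT cells, and the means, 1050 and 920, differed 1.14-fold. The class therefore held 9.01% of the library's MT UMIs and 1.11% of its non-MT UMIs. The MT share itself ran over nearly the whole scale, from 10.0% to 95.2% with a median of 37.6%.

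Depth and MT share were tied at both ends. Of the 132 cells under 1000 non-MT UMIs, 99 were high MT cells. Of those with 10000 or more, 13 (0.604%) were. The lowest total in the deposited table was 525 UMIs in high MT cells and 509 in low MT cells, so a cell with fewer non-MT UMIs than that could be present only through its MT UMIs. The lowest number of non-MT UMIs in a low MT cell was 484. Below it lay 62 high MT cells, of which 57 had an MT share of 50% or more. Whether low MT cells of the same non-MT depth were removed before deposit was not tested. A smaller set of 34 high MT cells with 5000 or more non-MT UMIs held 55.4% of the class's non-MT UMIs, so sums over the class weight these deeper cells most. The median MT share was 12.8% in them and 42.8% in the other 190.

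Among cells under 5000 non-MT UMIs the classes also differed in MT UMIs. At a given non-MT depth the 10% rule itself places cells with more MT UMIs in the high MT class, so these values are a description. The 190 high MT cells had a median of 881 MT UMIs and 947.5 non-MT UMIs. The 174 low MT cells had 82 MT UMIs and 2007.5 non-MT UMIs. Shallow low MT cells thus had little RNA of both kinds, while shallow high MT cells had a number of MT UMIs near the 789 of the whole low MT class. On both sides of the threshold values were close: the 11 cells from 10% to under 11% had a median of 10604 non-MT and 1206 MT UMIs, and the 11 cells from 9% to under 10% had 15086 and 1592.

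**Figure D1:**
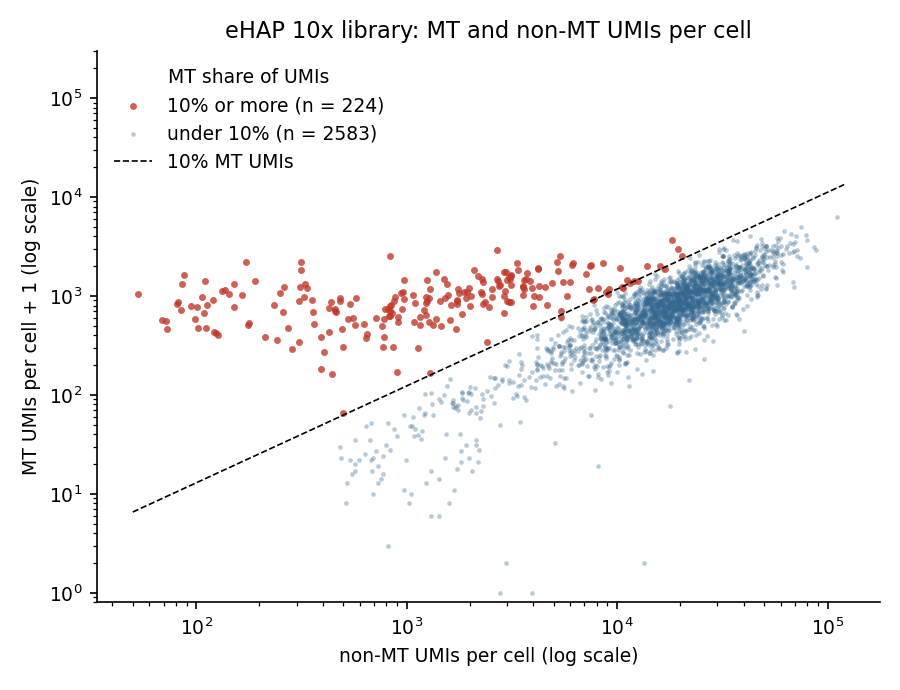
Each point is 1 cell of the standard eHAP library, with non-MT UMIs on the x axis and MT UMIs plus 1 on the y axis (both log scales). High MT cells form a band above the dashed line of 10% MT UMIs, at a median of 952 MT UMIs. The band runs over non-MT depths from 53 to 20432. Low MT cells under 5000 non-MT UMIs have few MT UMIs as well, with a median of 82.

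From the 7.5 to 10% bin of MT share upward, MT UMIs per cell varied little while other RNA was lower bin by bin. In the order under 2.5%, 2.5 to 5%, 5 to 7.5%, 7.5 to 10%, 10 to 15%, 15 to 25%, 25 to 50% and 50% or more, the bins held 254, 1545, 701, 83, 25, 25, 103 and 71 cells. Their median MT UMIs were 334, 743, 1073, 1176, 1180, 1185, 945 and 874. Their median non-MT UMIs were 16538.5, 19189, 17440, 13829, 9044, 4021, 1623 and 249. From the 7.5 to 10% bin upward the MT median stayed between 874 and 1185, and the non-MT median was lower at each step. Below it the MT median was higher at each step, and the non-MT median was highest at 2.5 to 5%.

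The difference in other RNA was uneven over kinds of transcript. Cytosolic ribosomal protein mRNAs, which are short, abundant and held on cytosolic ribosomes, had medians of 2386 UMIs per cell at 7.5 to 10%, 1216 at 10 to 15%, 214 at 15 to 25%, 50 at 25 to 50% and 28 at 50% or more. A list of 14 long noncoding RNAs, most of them retained in the nucleus, had 107, 84, 65, 27 and 2 UMIs in the same bins. Up to 50% MT share the noncoding RNAs were less reduced per cell than the ribosomal protein mRNAs, and between the last 2 bins they differed by more.

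As shares of non-MT UMIs, ribosomal protein mRNAs made up 17.2% at 7.5 to 10%, 15.0% at 10 to 15%, 6.39% at 15 to 25%, 3.26% at 25 to 50% and 8.93% at 50% or more. The noncoding RNAs made up 0.888%, 1.14%, 1.82%, 2.11% and 1.42%. Transcripts of the endoplasmic reticulum (ER) and secretory pathway, translated on ER membranes, made up 0.836%, 0.812%, 1.18%, 0.860% and 1.66%. By share, the cells at 25 to 50% were thus the poorest in the ribosomal protein list and the richest in the summed noncoding list. The cells at 50% or more had the highest share of ER transcripts. Members of the noncoding list differed. Per 1000000 non-MT UMIs at 10 to 25%, 25 to 50% and 50% or more, MALAT1 had 10668, 16193 and 8457 UMIs. FTX had 683, 1281 and 666. NEAT1 had 1206, 1916 and 3485, and PVT1 386, 690 and 705, both highest in the last band.

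Leaving out the 5 deepest cells of each band, an alternative added after seeing the data, left the low in ribosomal proteins and the high in noncoding RNAs at 25 to 50%, and the high in ER transcripts at 50% or more. The order of the outer bands turned for the first 2 groups. Ribosomal protein mRNAs then made up 10.7% at 10 to 25%, 3.46% at 25 to 50% and 11.3% at 50% or more, the noncoding RNAs 1.58%, 1.98% and 1.33%, and the ER transcripts 0.965%, 0.916% and 2.14%. The band at 50% or more rests on 25540 non-MT UMIs, against 364816 at 10 to 25% and 202991 at 25 to 50%. RNA free in the suspension reaches every droplet and takes a larger part of a shallow cell, and its part in the last band was not tested.

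**Figure D2:**
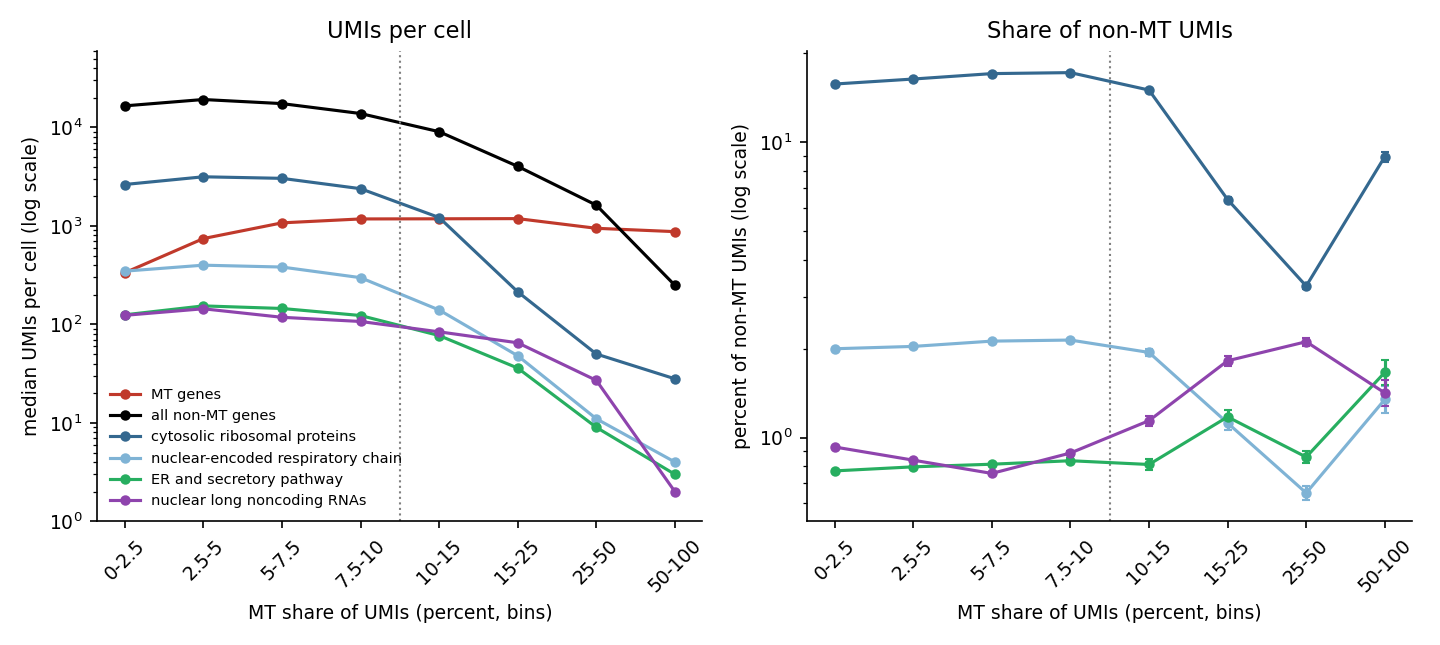
Median UMIs per cell (left, log scale) and percent of non-MT UMIs (right, log scale, with 95% exact binomial intervals) by bin of MT share, for 6 groups of genes. The dotted line marks 10%. MT UMIs stay near 1000 per cell to the right of the line, ribosomal protein mRNAs are lowest as a share, 3.26%, at 25 to 50%, and ER transcripts are highest, 1.66%, at 50% or more.

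The cells were chosen by the sum over the 13 MT genes, not by how that sum was split. Each gene is part of the sum, so its share is not independent of the choice or of the bins. All values in this paragraph are percentages of MT UMIs (235132 in high MT cells, 2375820 in low MT cells). MT-CO3 made up 25.1% in high MT cells and 21.7% in low MT cells, the largest difference of the 13 in percentage points. Over the 8 bins of MT share it was 20.5%, 21.6%, 22.0%, 22.5%, 23.0%, 24.9%, 25.4% and 25.7%, higher at each step. The other oxidase subunits were closer, MT-CO2 at 16.1% in high MT cells and 15.2% in low MT cells and MT-CO1 at 14.7% and 14.2%. MT-CYB, the core of complex III, made up 7.76% and 7.19%.

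The NADH dehydrogenase (complex I) transcripts were lower except for MT-ND6. MT-ND4 made up 7.71% in high MT cells and 9.53% in low MT cells, MT-ND1 4.99% and 5.55%, MT-ND2 3.69% and 5.15%, MT-ND3 2.54% and 2.96%, MT-ND5 1.496% and 1.557%, and MT-ND4L 0.353% and 0.435%. MT-ND2 had the largest difference of the 13 as a ratio, with a log2 ratio of -0.48 (95% interval -0.51 to -0.45). MT-ND6, the only mRNA encoded on the light strand, was 0.608% in high MT cells and 0.512% in low MT cells (log2 ratio 0.25, 0.17 to 0.33). It did not follow the MT share, with 0.706%, 0.554%, 0.448% and 0.358% in the 4 bins under 10% and 0.560%, 0.531%, 0.663% and 0.579% in the 4 above. Of the ATP synthase subunits, MT-ATP6 made up 14.8% and 15.8%, and MT-ATP8 0.115% and 0.143%.

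Summed by complex, complex IV held 55.9% of MT UMIs in high MT cells and 51.2% in low MT cells, complex I 21.4% and 25.7%, complex III 7.76% and 7.19%, and ATP synthase 15.0% and 15.9%. Within low MT cells MT-ND2 already made up 7.102%, 5.599%, 4.41% and 4.05% in the 4 bins under 10%, so this difference runs along the MT share and does not begin at the threshold. Between libraries the make-up differed more than between classes: in low MT cells of the other eHAP libraries MT-CO3 made up 11.3% with NOTE-seq and 19.1% with methanol, and MT-CO2 13.4% and 30.8%.

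**Figure D3:**
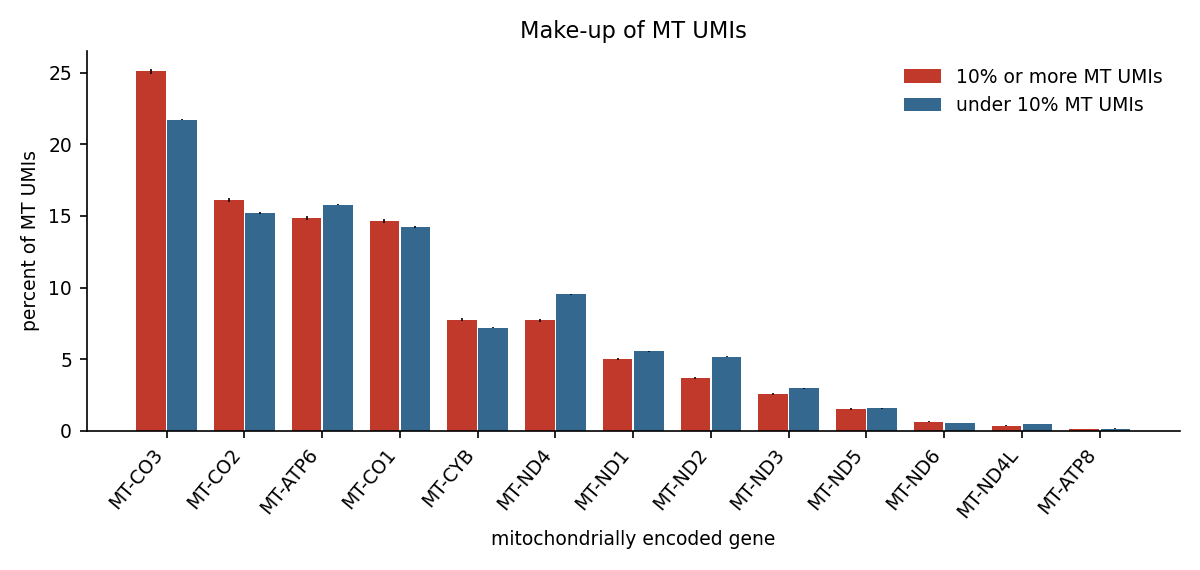
Percent of MT UMIs on each of the 13 mitochondrially encoded genes in high MT cells (left bar) and low MT cells (right bar) of the standard eHAP library, with 95% exact binomial intervals. MT-CO3 stands at 25.1% in high MT cells and 21.7% in low MT cells, and MT-ND4 and MT-ND2 are lower in high MT cells.

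For genes outside the mitochondrial genome, levels are UMIs summed over the class and scaled to 1000000 non-MT UMIs (CPM), and log2 ratios are high MT over low MT cells. Of 5816 genes with enough UMIs, 1834 were at least 1.5-fold higher in high MT cells, which is 31.5% of those compared, and 1128 at least 1.5-fold lower, which is 19.4%. The median log2 ratio was 0.18, and 0.06 with ribosomal protein genes out of the totals. Of the genes past the fold, 61.9% were higher. Centred on the median gene, with 1302 higher and 1530 lower, that was 46.0%, and with ribosomal protein genes out of the totals 51.3%. Among the 1046 genes with at least 100 UMIs in the smaller class at an equal share, 141 were higher and 490 lower. The gene lists below were read against the 31.5% and 19.4%.

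Cytosolic ribosomal proteins were lower nearly throughout: 78 of 79 were at least 1.5-fold lower and 0 higher, with a median log2 ratio of -0.86. Together they made up 8.89% of non-MT UMIs in high MT cells and 16.5% in low MT cells. RPS12 of the small subunit had 1790 CPM in high MT cells and 3774 CPM in low MT cells, and RPL27 of the large subunit 378 and 816 CPM. The member nearest to no difference, named after the values were seen, was RPL31, with a log2 ratio of -0.51. Reads of ribosomal protein genes can be split with their many processed pseudogenes, and how these were counted is not given in the sources used here.

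In single cells with at least 500 non-MT UMIs, the ribosomal protein share ran from 1.08% to 22.0% with a median of 3.98% over 159 high MT cells, against 1.33% to 28.5% with a median of 16.7% over 2581 low MT cells. The ranges overlapped, and the middle 50% of cells did not: 2.47% to 7.42% in high MT cells and 15.3% to 18.1% in low MT cells. The classes stood further apart among shallow cells. Below 5000 non-MT UMIs the summed share was 4.78% in high MT cells and 16.6% in low MT cells, and from 5000 upward it was 12.2% and 16.5%. With the classes split at 5% MT share in place of 10%, the log2 ratio of the summed share was 0.042 for ribosomal proteins and -0.087 for the nuclear long noncoding RNAs, against -0.89 and 0.98 at 10%.

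Other parts of translation followed in part. Of 32 translation factors, 0 were higher and 11 lower. EEF1A1, the elongation factor that brings tRNAs to the ribosome, had 2299 CPM in high MT cells and 4366 CPM in low MT cells (log2 ratio -0.93), and EIF1, which scans for the start codon, 463 and 903 CPM.

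Histone mRNAs were all lower among those compared, 10 of 10, with a median log2 ratio of -0.99. They made up 0.361% of non-MT UMIs in high MT cells and 0.724% in low MT cells. HIST1H4C, a core histone gene, had 349 CPM in high MT cells and 895 CPM in low MT cells (log2 ratio -1.36, -1.56 to -1.16). H2AFZ, a variant made outside S phase, had 1222 and 2505 CPM. Other cell cycle lists did not share this. Of 26 genes of G1/S and DNA replication 1 was higher and 5 lower, and of 29 of G2/M and mitosis 2 were higher and 8 lower, with summed shares of 0.432% in high MT cells and 0.464% in low MT cells. Single members went both ways: POLA1, the catalytic subunit of the primase-bound polymerase, had 546 CPM in high MT cells and 267 CPM in low MT cells, while CKS2, a cyclin-dependent kinase partner, had 84.3 and 205 CPM.

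Nuclear-encoded subunits of the respiratory chain, the partners of the MT-encoded ones, were lower or within 1.5-fold. Of 74 compared, 0 were at least 1.5-fold higher and 45 lower, with a median log2 ratio of -0.68, and they made up 1.30% of non-MT UMIs in high MT cells and 2.06% in low MT cells. By complex, 20 of 36 were lower for complex I, 1 of 4 for complex II, 7 of 9 for complex III, 8 of 10 for complex IV and 9 of 15 for ATP synthase.

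NDUFA8, an accessory subunit of complex I, had 57.3 CPM in high MT cells and 162 CPM in low MT cells. UQCR10 of complex III had 179 and 389.5 CPM. COX7A2 of complex IV had 155 and 296 CPM. ATP5MC3, which encodes a ring subunit of ATP synthase, had 506 CPM in high MT cells and 968 CPM in low MT cells. Complex II, the only complex with no MT-encoded subunit, differed least: SDHC had a log2 ratio of -0.62, SDHD -0.40 and SDHB -0.08, and SDHA one of 0.43.

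Other nuclear genes for mitochondrial proteins were read list by list. Mitochondrial ribosomal proteins had 0 of 71 higher and 40 lower, with MRPS17 at 38.8 CPM in high MT cells and 109.7 CPM in low MT cells. Import and chaperone genes had 0 of 26 higher and 11 lower, with the inner membrane translocase subunit TIMM17B at 45.5 and 122 CPM. Genes of mitochondrial DNA upkeep and transcription, with 4 of 14 higher and 2 lower, were near the shares over all genes. FASTKD1, which acts on mitochondrial RNA, had 101 CPM in high MT cells and 50.5 CPM in low MT cells, and NRF1, a transcription factor for respiratory genes, had 157 and 80.3 CPM. Mitophagy and mitochondrial dynamics had 2 of 10 higher and 3 lower: the fission GTPase DNM1L had 139.9 and 84.8 CPM, and its membrane partner FIS1 80.9 and 180.1 CPM.

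Nuclear long noncoding RNAs were higher, 6 of 10 compared and 0 lower, with a median log2 ratio of 0.82. They made up 1.63% of non-MT UMIs in high MT cells and 0.827% in low MT cells. FTX, from the X inactivation centre, had 887 CPM in high MT cells and 319 CPM in low MT cells (log2 ratio 1.48, 1.35 to 1.60). PVT1, the neighbour of MYC, had 504 and 207 CPM. NEAT1, the scaffold of paraspeckles, had 1547 and 662 CPM. PURPL, a p53-linked noncoding RNA, had 207 and 104 CPM. MALAT1 of nuclear speckles, with 12463 and 6379 CPM, and JPX, with 298 and 188 CPM, complete the 6 and were named after their values were seen.

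The other 4 noncoding RNAs, also named after the values were seen, did not pass 1.5-fold. NORAD, known for its cytoplasmic location, had 75.8 CPM in high MT cells and 87.6 CPM in low MT cells, GAS5 109.5 and 157 CPM, TUG1 35.4 and 42.9 CPM, and OIP5-AS1 113 and 115 CPM. In single cells with at least 500 non-MT UMIs the share of the whole list ran from 0.175% to 7.85% with a median of 1.59% in high MT cells, and from 0.0299% to 4.39% with a median of 0.750% in low MT cells. Below 5000 non-MT UMIs the summed share was 1.90% in high MT cells and 0.800% in low MT cells. Per cell the number of UMIs was still lower, with means of 43.2 in high MT cells and 169 in low MT cells: the noncoding RNAs took a larger part of a smaller total. Among splicing and speckle proteins, which share the nuclear site but whose mRNAs are exported, 2 of 20 were higher and 4 lower.

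Cytosolic housekeeping lists were lower. Glycolysis had 0 of 12 higher and 6 lower: GAPDH had 1294 CPM in high MT cells and 2413 CPM in low MT cells, and TPI1, the triosephosphate isomerase, 511 and 1071 CPM. The cytoskeleton list had 1 of 25 higher and 17 lower, led by the actin-binding TMSB4X at 986 and 2212 CPM and the myosin light chain MYL12B at 189 and 425 CPM. The proteasome had 0 of 31 higher and 14 lower, with PSMB3 at 209 and 396 CPM. Heat shock and chaperone genes had 0 of 17 higher and 6 lower, with the small heat shock protein HSPB1 at 119.7 and 221 CPM.

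ER and secretory genes were mixed, 8 of 38 higher and 4 lower, with a median log2 ratio of 0.34. HSPA5, the main lumenal chaperone, had 841 CPM in high MT cells and 464 CPM in low MT cells, and the disulfide isomerase PDIA3 565 and 301 CPM. OST4 of the oligosaccharyltransferase had 87.6 and 179 CPM, and SEC61G of the translocon 138 and 256 CPM. Their summed share was 0.942% in high MT cells and 0.800% in low MT cells, yet the median over cells with at least 500 non-MT UMIs was lower, 0.622% in high MT cells against 0.801% in low MT cells, so sum and median differ in direction. HSPA5 had 704, 931 and 2075 CPM at MT shares of 10 to 25%, 25 to 50% and 50% or more. In the last of these bands it had 53 UMIs, at most 6 of them in a single cell.

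Over the whole class, stress and death genes showed no common direction. The integrated and unfolded protein stress response had 3 of 11 higher and 1 lower. The 3 were amino acid transport genes, SLC3A2 with 408 CPM in high MT cells and 229 CPM in low MT cells, SLC7A11 with 155 and 89.9 CPM, and SLC7A5 with 89.3 and 54.5 CPM. The summed share of this stress list was 0.137% at 10 to 25%, 0.158% at 25 to 50% and 0.243% at 50% or more. It was 0.140% in low MT cells, and the last band rests on 62 UMIs. Among 4 immediate early genes none was lower and 2 were higher, CCN1 at 147 and 87.6 CPM and MYC at 70.8 and 46.8 CPM. Of 8 p53 targets 2 were higher and 3 lower. Apoptosis regulators had 1 of 14 higher and 6 lower: PMAIP1 (NOXA) had 21.9 CPM in high MT cells and 48.0 CPM in low MT cells, and CYCS, the cytochrome c released in apoptosis, 241 and 442 CPM. Interferon and MHC class I had 1 of 5 higher and 1 lower, and hypoxia 1 of 5 higher and 2 lower.

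**Figure D4:**
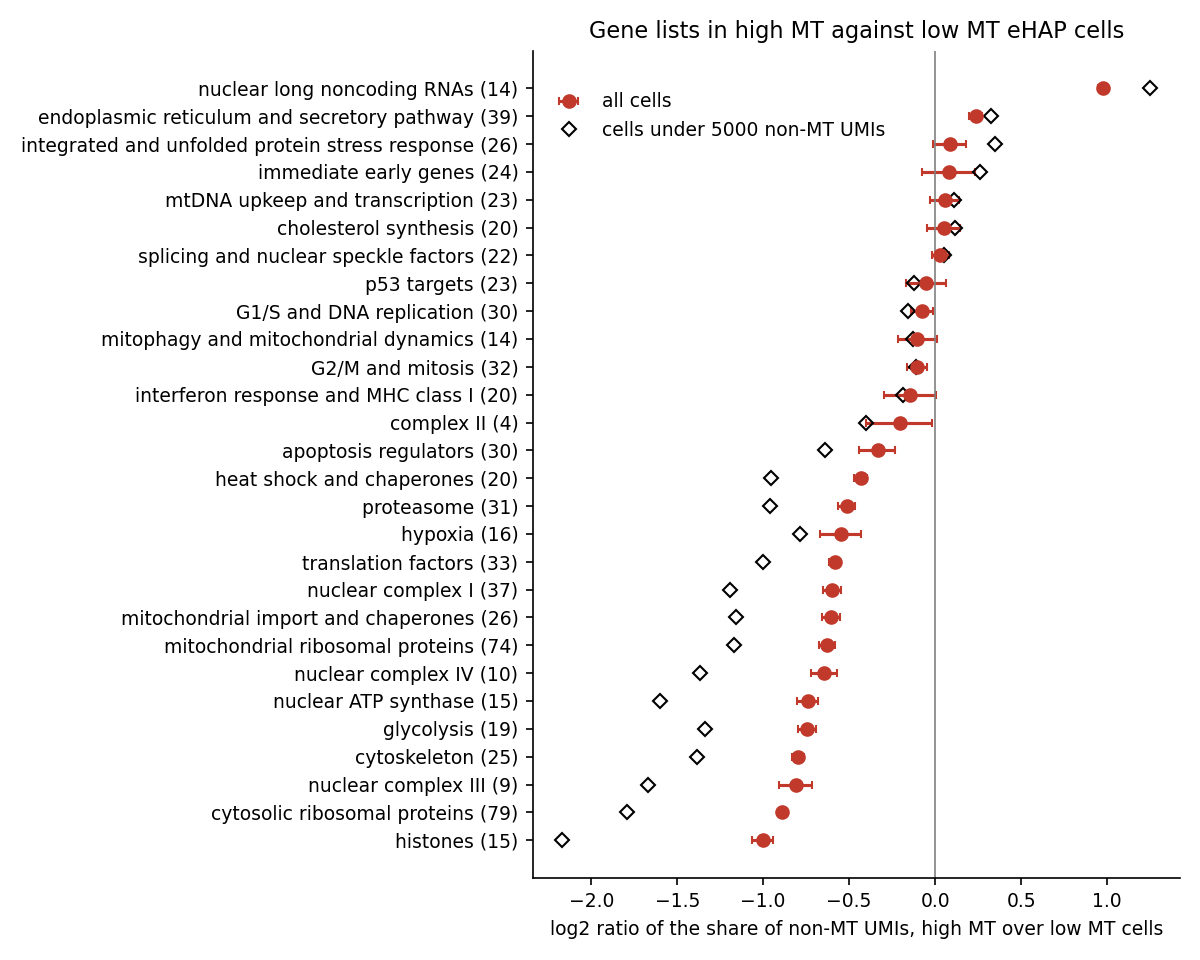
Log2 ratio of summed share of non-MT UMIs, high MT over low MT cells, for lists with at least 4 members compared, without MT-like copies and markers of other cell types, over all cells (filled circles, with 95% exact conditional binomial intervals) and over cells under 5000 non-MT UMIs (open diamonds, no interval drawn). Numbers after the names count list members in the table. Of the lists drawn, nuclear long noncoding RNAs lie highest and histones lowest, and for the lower lists the diamonds lie further from 0 than the circles.

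Among single genes, MTRNR2L12 had the highest ratio of those with at least 50 CPM in 1 class, at 853 CPM in high MT cells and 104 CPM in low MT cells (log2 ratio 3.04, 2.91 to 3.17). This nuclear gene is a near copy of the mitochondrial 16S ribosomal RNA gene, so its reads may come from either and its value is uncertain. Set against MT UMIs it hardly differed, with 2.15 UMIs per 1000 MT UMIs in high MT cells and 2.30 in low MT cells.

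The other 11 of the 12 highest were FBXL2, HDAC2-AS2, SIL1, CHODL, MAML3, MAP3K15, RNF111, COL26A1, TMEM178B, SFMBT2 and COL18A1, with log2 ratios from 1.59 to 1.84. FBXL2, an F-box substrate adaptor, had 158 CPM in high MT cells and 44.3 CPM in low MT cells. HDAC2-AS2, annotated antisense to HDAC2, had 283 and 79.2 CPM. SIL1, an exchange factor for HSPA5, had 184 and 56.5 CPM. SFMBT2, a Polycomb-group protein, had 258 and 85.7 CPM. Antisense and overlapping genes such as HDAC2-AS2 stay uncertain where reads of 2 genes meet.

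The 12 lowest were CDK2AP2, PITX1, CHMP5, ZNF580, CMC4, CHMP2A, C4orf3, DHRS2, SF3B5, DBNDD2, FYTTD1 and CCDC124, with log2 ratios from -1.99 to -1.51. All but SF3B5 and CCDC124 rest on 8 to 15 UMIs in high MT cells, so their order is loose. For PITX1, with 8 UMIs, the 95% interval of the log2 ratio was -3.16 to -0.97. CDK2AP2, linked to the cyclin-dependent kinase CDK2, had 9 UMIs and 15.2 CPM in high MT cells, against 60.1 CPM in low MT cells. CHMP5 and CHMP2A, parts of the ESCRT-III membrane scission machinery, had 25.3 and 16.9 CPM in high MT cells, against 90.1 and 54.8 CPM in low MT cells. SF3B5, a subunit of the splicing factor SF3b, had 60.7 and 181 CPM. DHRS2, a short-chain dehydrogenase, was uneven within both classes. Its 16.9 CPM in high MT cells stand against 51.2 CPM in all low MT cells and 9.70 CPM in low MT cells under 5000 non-MT UMIs, and all 10 of its UMIs in high MT cells lay in the band at 25 to 50%, where it had 49.3 CPM.

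The highest and lowest genes differed in length along the genome. Gene span, from first to last base including introns, was taken from RefSeq (GRCh38.p14) for 5676 of the 5816 genes (97.6%). Its median was 224 kb over the 12 highest genes and 7.06 kb over 11 of the 12 lowest, with no span for C4orf3. Over quintiles of span, from shortest to longest, the median log2 ratio was -0.69, -0.31, 0.16, 0.55 and 0.90. Genes at least 1.5-fold higher were 2.46%, 5.73%, 20.9%, 45.9% and 82.7% of the quintiles, and genes at least 1.5-fold lower 59.4%, 27.9%, 7.67%, 1.41% and 0.176%. The ratio was thus higher at each step of span. This is a pattern across genes of 1 library, and genes are not independent of each other.

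Genes of the longest quintile, over 127 kb, held 21.5% of non-MT UMIs in high MT cells and 11.7% in low MT cells. Genes of the shortest, up to 12.1 kb, held 23.3% and 37.8%. By bin of MT share the longest quintile held 11.1% at 7.5 to 10%, 14.3% at 10 to 15%, 23.2% at 15 to 25%, 28.8% at 25 to 50% and 22.5% at 50% or more. The shortest held 38.8%, 34.4%, 19.7%, 12.5% and 23.3%. In the last bin the summed noncoding list, mostly MALAT1, and the ribosomal protein mRNAs also turned.

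Span and list are entangled. The median span was 5.01 kb for the ribosomal proteins, 10.6 kb for the nuclear-encoded respiratory chain and 9.35 kb for the cytoskeleton list, against 23.4 kb for the noncoding RNAs and 24.9 kb for the ER list. How far the differences between lists follow from span was not tested. Whether intron reads were counted is not given in the sources used here, and the share of unspliced RNA in either class could not be read from UMI totals per gene.

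**Figure D5:**
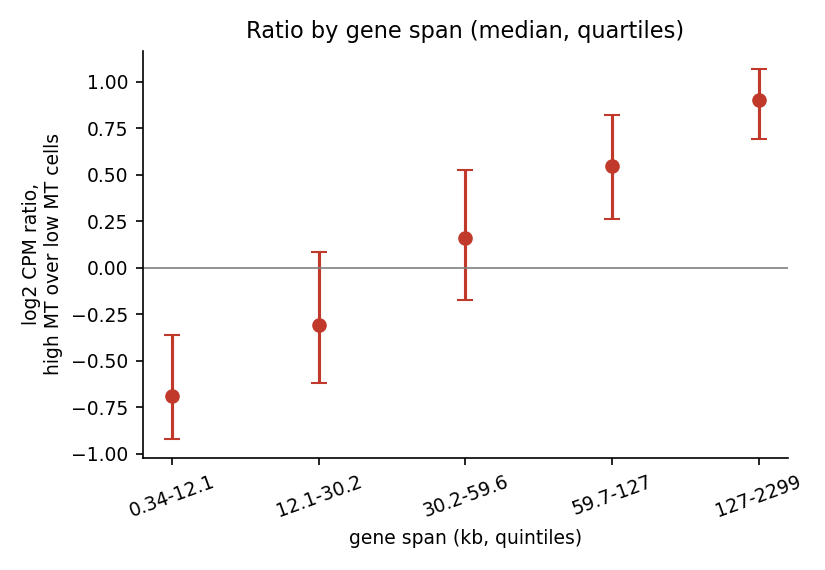
Log2 CPM ratio, high MT over low MT cells, by quintile of gene span (x axis, kb). Points are medians over genes and bars the quartiles. The median is -0.69 in the shortest quintile and 0.90 in the longest.

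High MT cells also held more kinds of transcript at equal depth. After thinning to 2000 non-MT UMIs, which left out 137 high MT and 87 low MT cells, a median of 1524 genes was detected in 87 high MT cells and 1350 in 2496 low MT cells. Without thinning, the same cells had 2509 and 5779.5 genes. The thinned middle 50% of cells lay at 1473.5 to 1551.5 genes in high MT cells and 1311 to 1386 in low MT cells. Of the whole classes, high MT cells had a median of 1065.5 genes detected and low MT cells 5696.

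High MT cells were few or missing in the other eHAP libraries. NOTE-seq had 0 of 3046 cells at 10% or more, with an upper 95% Clopper-Pearson limit of 0.121%. The methanol library had 10 of 4223 (0.237%, 0.114 to 0.435), beside 7.98% in the standard library. The intervals run over cells of 1 library each and do not test the protocols. The protocols differ in fixation, 4sU and conversion, and the libraries are single, so these cannot be told apart. The highest MT share was 8.21% with NOTE-seq and 18.1% with methanol. Elsewhere the mixture with NIH3T3 had 34 of 586 cells (5.80%), Jurkat libraries 1 to 5 cells each, and K562 and naive T libraries 0.

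The 10 methanol cells had 28.5% of non-MT UMIs on ribosomal proteins, against 37.0% in the other methanol cells, and 5.29% on the long noncoding RNAs, against 0.835%. The 34 cells of the mixture had 22.2% on ribosomal proteins, against 26.6%, and 0.434% on the noncoding RNAs, against 0.308%. The direction in both was that of the standard eHAP library. Human and mouse cells of the mixture were summed together, so a difference in their proportions between the classes cannot be told apart. In Jurkat libraries with 1 to 5 such cells the ribosomal protein share went both ways, lower at 12.6% against 19.8% in 1 unstimulated cell and higher at 8.79% against 7.34% in 5 unstimulated cells of the other library. In the stimulated libraries it was 7.72% against 19.6% in 2 cells and 6.82% against 6.96% in 3 cells. The noncoding RNA share was 0.471% against 0.193% in these 2 cells and 0.960% against 0.643% in these 3. In unstimulated libraries it was 1.01% against 0.602% in the 5 cells and 0.190% against 0.214% in the 1 cell. These Jurkat noncoding shares rest on 1 to 41 UMIs.

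Taking as large a top share of cells by MT share in each library gives another view. The top 243 NOTE-seq cells, at 2.79% to 8.21% MT, had a median of 9130 non-MT UMIs, against 9126 in the rest. Their ribosomal protein share was 15.8%, against 16.3%, and their noncoding RNA share 0.420%, against 0.432%. The top 337 methanol cells, at 2.52% to 18.1%, had 2367 non-MT UMIs, against 11348, with 34.2% on ribosomal proteins, against 37.2%, and 1.13% on the noncoding RNAs, against 0.819%. Their cytoskeleton share was higher, 1.96% against 1.63%, and so was their glycolysis share, 1.15% against 1.06%, while in the standard library both lists were lower in high MT cells. In NOTE-seq the cells highest in MT share thus had the depth of the rest, and in the methanol library they were shallower as in the standard library.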

How the data were processed

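The deposited single-cell matrices hold UMI counts per gene and cell, made by the authors with cellranger 7.1.0, per the file headers. The labels name builds GRCh38 and mm10. Cell filters and the intron setting are not given in the sources used here. Every deposited cell was kept. The standard eHAP library totals 55960312 UMIs. The members and gene lists were chosen with earlier results of these data known.

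MT UMIs were removed from totals, UMIs summed per class, and CPM ratios computed for genes with at least 100 UMIs over both classes and at least 20 in the smaller class at an equal share (5816 genes, of 36601 in the table). Genes at 1.5-fold or more were counted. Intervals are 95% (Clopper-Pearson for shares, also for counts of 0, and exact conditional binomial for ratios), and all cover counting error only. The ratio step was tested on simulated data. Named genes are the 13 MT genes, the 12 highest and 12 lowest ratios with at least 50 CPM in 1 class, and up to 4 members per list with the largest ratios. List members under newer symbols were matched by gene ID (15), and 1 had no row. The planned test across 3 eHAP libraries needed at least 50 cells per class and was not run. Alternatives changed the MT threshold, depth, weighting, scaling and filters. Python 3.11.15, numpy 2.4.6 and scipy 1.17.1 were used. SLAM-seq tables were not used here. Some genes that the naming rule gives are not reported here.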

Additional observations from a re-analysis of the deposited data

How the results depend on the processing

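No paired analysis was possible because the classes come from 1 library. The planned comparison of the 3 eHAP libraries, with its other thresholds, scalings, tool, filter, equal top share, left-out libraries and library block, was not run, since the other 2 held 0 and 10 high MT cells. In the standard library the values of the report are 1834 genes higher and 1128 lower, log2 ratios of summed share of -0.89 for ribosomal proteins and 0.98 for nuclear long noncoding RNAs, and 174 more genes detected after thinning (80 more after thinning to 1000 UMIs). At an MT threshold of 5%, with 1008 high MT cells, 79 genes were higher and 57 lower, and ribosomal proteins (0.042), noncoding RNAs (-0.087), glycolysis (0.048), the cytoskeleton (0.024), the nuclear-encoded respiratory chain (0.042) and splicing factors (-0.044) changed sign, since most cells added lie between 5% and 7.5%. At 20% (189 cells) 1134 genes were higher, with -2.00 for ribosomal proteins and 1.28 for noncoding RNAs. Among cells with at least 5000 non-MT UMIs, 579 genes were higher and 294 lower, with -0.43 and 0.77. Weighting cells equally gave -0.95 and 1.05, and a low class under 5% gave -0.87 and 0.94. Cells within a shared window of 134.2 to 7281 non-MT UMIs (178 high MT, 271 low MT) gave -1.71 and 1.36. Within that window depth was not matched between the classes. With no gene filter 7895 genes were higher and 2054 lower. A filter of 1000 UMIs gave the same counts, 1834 and 1128, because 20 UMIs in the smaller class already need more.

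Further alternatives were chosen after seeing the data. Centring on the median gene gave -1.07 and 0.80, and totals without ribosomal protein genes -1.02 and 0.85. Splicing factors, at 0.03 in the report's setting, changed sign under both, with -0.15 and -0.095. At least 100 UMIs in the smaller class left 141 genes higher and 490 lower. Without the 10 deepest high MT cells the values were -1.34 and 1.22. Cells under 5000 non-MT UMIs gave 560 genes higher and 580 lower, with -1.79 and 1.25. Except where a sign or a value above is given, the cause of these shifts was not tested. Depth limits single genes: the median gene compared had 56 UMIs in high MT cells.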
